A study of Rattus norvegicus with 8 samples.

Results

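Serotonin acts on neurons through a family of receptors, and 10 of its genes were followed here in the rat medial thalamus: Htr1a, Htr1b, Htr1d, Htr1f, Htr2a, Htr2c, Htr4, Htr5b, Htr6 and Htr7. They were taken as all non-control spots of the array whose gene name, without the suffix for a predicted gene, is one of these symbols. This gave 10 of 35561 gene names, with 14 of 41012 probes and 32 of 43379 spots. Htr2a had 4 probes, Htr7 had 2, and each of the other 8 genes had 1. One probe of Htr1a and one of Htr2a were printed as 10 spots each.

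The animals were 8 male Sprague-Dawley rats under urethane anaesthesia, all carrying an inflatable cuff around the trachea. In the 4 occlusion rats the cuff obstructed 2 to 4 breaths, was released for at least 15 breaths, and this cycle ran for 10 min before the brain was taken out at once. In the 4 control rats the cuff stayed deflated, and the brain was taken out 70 min after surgery was set up. Each rat's thalamic RNA was labelled with Cy5 on its own Agilent array, against Cy3-labelled RNA pooled from all 8 rats, with no dye swap. The ages of the rats are not given in the sources used here, and all of them had the same surgery and anaesthetic, so no rat was free of either. The time from setup to brain removal in the occlusion rats is also not given, so it cannot be told apart from the occlusions themselves. A log2 ratio below is the rat over the pool, and a log2 difference is the occlusion mean minus the control mean.

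Apart from the ion channel receptors of the Htr3 type, serotonin receptors are G-protein-coupled receptors that sort into arms by the G protein they engage. The Htr1 receptors couple to Gi/o, which lowers cyclic AMP and opens inward-rectifier potassium channels, and the Htr5 receptors are usually placed beside them. Htr2 receptors couple to Gq and phospholipase C, whereas Htr4, Htr6 and Htr7 couple to Gs and raise cyclic AMP. Serotonergic fibres from the raphe nuclei reach the thalamus, and in rodents the midline and intralaminar thalamus is a known site of Htr7 expression, while Htr5b is known from the habenula just above it.

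Of the array's probes, 62.8% were well above background in Cy5 on all 8 arrays, and median Cy5 signal over background was between 3.44 and 4.34 in the 8 rats. The markers of the labelled tissue were present: 9 thalamic relay neuron markers that could be matched to a probe were well above background on every array. The library labelled control 3 nevertheless stood apart from the other 7. Its mean log2 ratio over those 9 markers was -1.98, against -0.31 to 0.20 in the other 7 rats, and its mean over 10 cortex markers was 1.27, against -0.80 to -0.25. Each log2 difference of a tested receptor probe is therefore given with and without control 3. The arrays lay on 2 slides, each holding 2 rats of each group, and these differences are also given within each slide. On the array of control 1, 66.0% of probes were well above background in Cy5, against 73.8% to 79.4% on the others. That array also had 853 outlier spots, against 136 to 423 on the others.

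Both Htr7 probes and those of Htr5b and Htr2c, 4 of the 14 receptor probes (28.6%), were well above background in Cy5 on all 8 arrays, and 2 Htr2a probes were on 0 arrays. The test took every probe with such a signal on 4 or more arrays, counted over both groups together, and 8 of the 14 (57.1%) qualified, against 77.2% of all probes of the array. The tested probes covered 7 genes. The probes named Htr1a, Htr1f and Htr4 and the other 3 Htr2a probes have values below but no call.

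**Figure D1:**
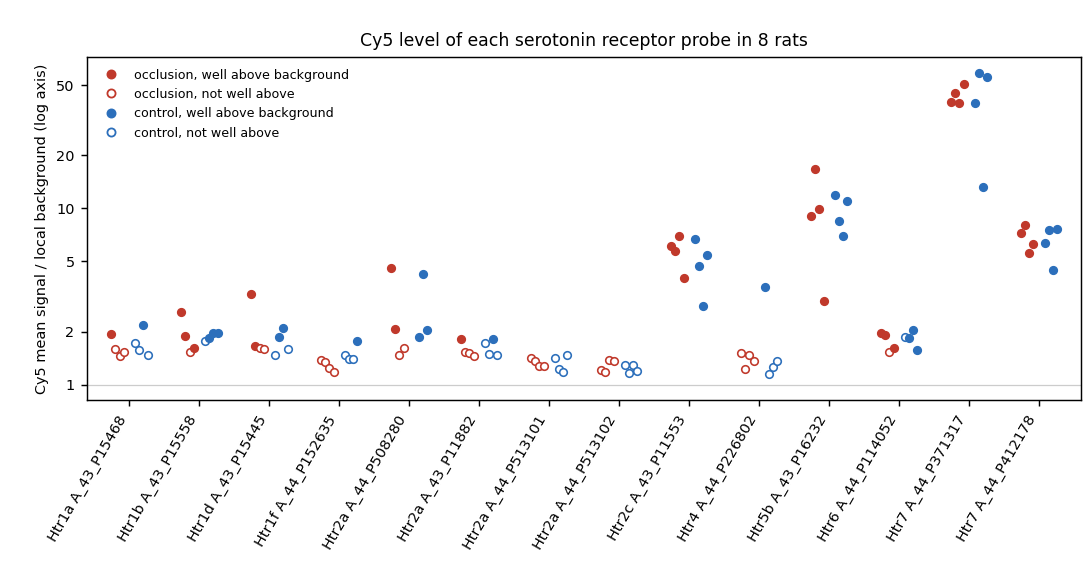
Cy5 mean signal over local background (log axis) for each of the 14 probes of the 10 receptor genes; each point is 1 rat, with the 4 occlusion rats left of the 4 control rats, filled where the spot was well above background. Probes are not comparable with each other in height; the lowest control point of Htr7 A_44_P371317, at 13.2, is control 3, and the single filled point of Htr4, at 3.58, is control 1.

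No receptor probe passed the test between occlusion and control. With limma and Benjamini-Hochberg adjustment over all 31669 tested probes, 0 of the 8 receptor probes were called at an adjusted p under 0.05, beside 0% of all tested probes. At an unadjusted p under 0.05 there were 0 of 8 receptor probes, beside 3.06% (968 probes) of all. The 2 groups of rats overlapped for all 8 of them, whereas they did not overlap for 2.5% of all tested probes. Among the 8 log2 differences, 5 were above 0 and 3 below, with a median of 0.07. Without control 3 there were 4 above and 4 below, with a median of -0.02. Over all tested probes the median absolute log2 difference was 0.07, with a median standard error of 0.10, and 50.7% were above 0. In tissue RNA, fewer cells of a type and less RNA per cell cannot be told apart, for any of the values below.

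**Figure D2:**
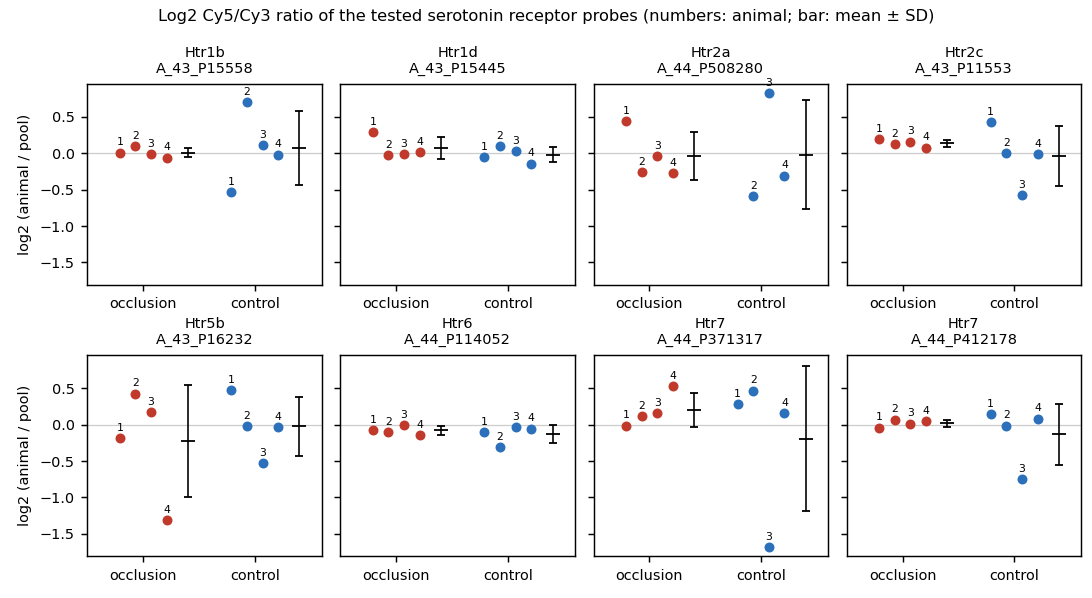
Log2 ratio of each rat to the pool of all 8 rats for the 8 tested receptor probes, occlusion left and control right; numbers are the rats' numbers and the black bars are mean ± SD of a group (n = 4, except 3 controls for Htr2a). The groups overlap in every panel, and the control spread is widest for Htr7 A_44_P371317, where control 3 lies at -1.68.

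Htr7, the Gs-coupled receptor best known from the midline thalamus, was measured on every array. Its probe A_44_P371317 (rn3, chr1:240308991-240309050, minus strand) had Cy5 signal over background of 40.2, 45.2, 39.6 and 51.0 in occlusion rats 1 to 4, against 39.5, 58.7, 13.2 and 55.7 in control rats 1 to 4. The log2 ratios were -0.01, 0.12, 0.16 and 0.53 under occlusion, against 0.28, 0.47, -1.68 and 0.16 in controls. Control 3 alone was low, and the other 7 rats lay between -0.01 and 0.53 with both groups mixed. The means were 0.20 ± 0.24 under occlusion and -0.19 ± 1.0 in controls (SD, n = 4 each). The log2 difference was 0.39 (95% interval -0.58 to 1.36, limma adjusted p = 0.977), and the exact two-sided permutation p over the 70 assignments was 0.771. Those bounds correspond to a fold of 0.67 and of 2.57. Without control 3 the log2 difference was -0.11, with a standard error of 0.13. Within slide 1, which holds control 3, it was 0.81, and within slide 2 it was -0.03.

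The other Htr7 probes had a smaller span over the rats. A_44_P412178 (chr1:240319318-240319377), which lies 10327 bases from the first on the same strand, had log2 ratios of -0.04, 0.07, 0.01 and 0.05 under occlusion, against 0.15, -0.01, -0.75 and 0.08 in controls. Control 3 was again the lowest rat, and the occlusion values lay within the range of the controls. Occlusion minus control came to 0.15 (95% interval -0.26 to 0.57, limma adjusted p = 0.977), with an exact permutation p of 0.857. Without control 3 it was -0.05, within slide 1 it was 0.35 and within slide 2 -0.04. A further probe, A_44_P1070965, lies 1391 bases from the first and carries only the accession U68491 as its gene name, so the rule for members left it out. The gene table used here assigns that accession to Htr7. Its log2 ratios were 0.10, -0.06, 0.24 and 0.68 under occlusion, against 0.50, 0.16, -0.55 and 0.46 in controls, so control 3 was the lowest rat on all 3 probes. Its log2 difference was 0.10 (limma adjusted p = 0.986), and -0.14 without control 3, and occlusion 4 was the highest rat here, as on A_44_P371317.

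The Cy3 channel gives the spread between arrays for one and the same pool of RNA, hybridised on all 8. For A_44_P371317 the highest Cy3 signal over background was 1.26 times the lowest, whereas in Cy5 the highest rat was 4.44 times the lowest. For A_44_P412178 these ranges were 1.2-fold in Cy3 and 1.80-fold in Cy5. Over all tested probes, the median range was 1.29-fold in Cy3 and 1.64-fold in Cy5, and the Cy5 range was above the Cy3 range for 85.7%. The log2 ratios of A_44_P371317 spanned 2.21 over the 8 rats, wider than for 98.7% of the tested probes measured on every array, whose median span was 0.42.

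Marker lists moved with Htr7 in control 3. Over the 9 thalamic relay markers, all well above background on every array, the mean log2 ratio was between -0.31 and 0.15 in the occlusion rats, and 0.11, 0.18, -1.98 and 0.20 in controls 1 to 4. Among them Slc17a6, the vesicular glutamate transporter of relay neurons, was at -2.99 in control 3, Prkcd, a protein kinase C, at -3.01, and Calb2, the calcium-binding protein calretinin, at -2.25. Within slide 1 the relay marker mean was between -1.98 and 0.20. The A_44_P371317 difference there was 0.81, with a standard error of 0.63. Within slide 2 the marker mean was between 0.08 and 0.18, and the difference was -0.03, with a standard error of 0.16. Each slide held only 2 rats of each group. The part of these markers in the Htr7 difference was not tested.

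**Figure D3:**
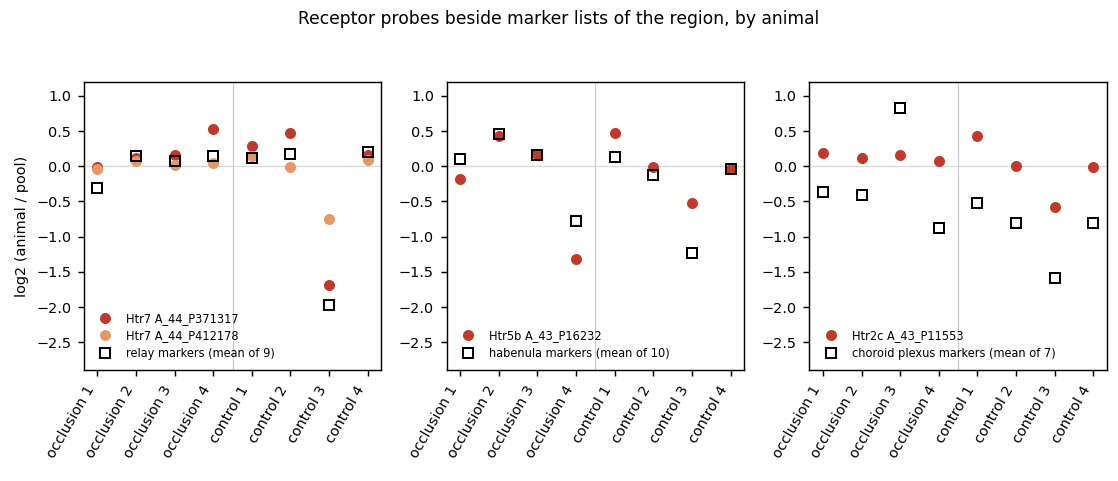
Log2 ratio to the pool for Htr7, Htr5b and Htr2c probes (circles) beside the mean log2 ratio of a marker list (open squares), for occlusion rats left and control rats right of the vertical line. In control 3 both Htr7 probes and the relay marker mean (-1.98) are at their lowest; in occlusion 4 Htr5b (-1.32) and the habenula marker mean (-0.78) are both low; Htr2c has a log2 ratio of 0.16 in occlusion 3, where the choroid plexus marker mean reaches 0.83, but its highest Cy5 signal over background (6.95) is in that rat.

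Htr6, another Gs-coupled receptor, was dim, and its log2 ratios lay close together after a background correction that pulls dim probes towards 0. Its probe A_44_P114052, placed by the array's annotation on an unassembled part of chromosome 5, had log2 ratios of -0.07, -0.10, -0.0014 and -0.14 under occlusion, against -0.10, -0.30, -0.03 and -0.05 in controls. The groups overlapped, with occlusion 3 the highest rat and control 2 the lowest. It was well above background in Cy5 on 6 arrays, 3 in each group, and Cy5 signal over background was 1.53 to 1.96 under occlusion, against 1.58 to 2.04 in controls. The log2 difference was 0.04 (95% interval -0.13 to 0.22, limma adjusted p = 0.980; exact permutation p = 0.657), the narrowest interval among the 8 tested probes. It was -0.04 within slide 1, 0.13 within slide 2 and 0.08 without control 3. The scanner software's log2 ratios for this probe spanned more, from -0.93 in control 2 to 0.25 in control 4. Its Cy5 range over the rats was 1.33-fold, beside a 1.37-fold range of the pool in Cy3. Cy3 was well above background on 1 array. With both channels near background, these ranges cannot decide how much the rats varied.

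Htr4, the remaining Gs-coupled receptor, was not tested. Its probe A_44_P226802 was well above background on 1 array, control 1, with Cy5 signal over background of 1.51, 1.22, 1.48 and 1.37 under occlusion, against 3.58, 1.16, 1.26 and 1.37 in controls. In occlusion rats it therefore has only a bound, and 3 of the 4 controls were not well above background either, so no fold is given. On the same spot of the same array the pool in Cy3 was at 10.6, against 2.17 to 2.75 on the other 7 arrays, and the log2 ratio of control 1 was -1.55, against -0.06 to 0.04 elsewhere. Both channels of that spot were thus high together, and the ratio of control 1 to the pool was low although its Cy5 signal was the highest of the 8. The annotated position of this probe spans 13020 bases, chr18:58505768-58518787 on the plus strand, longer than that of any other receptor probe here.

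Htr5b, a Gi/o-associated receptor that is a functional gene in rodents, varied widely among rats within each group. Its probe A_43_P16232 (chr13:33548668-33548727, minus strand) was well above background everywhere, with Cy5 signal over background of 9.08, 16.8, 9.87 and 3.0 under occlusion, against 12.0, 8.49, 6.94 and 11.0 in controls. The log2 ratios were -0.18, 0.43, 0.17 and -1.32 under occlusion, against 0.48, -0.02, -0.53 and -0.04 in controls. Occlusion 4 was the lowest rat and control 1 the highest, with occlusion 2 close to control 1. The means were -0.23 ± 0.77 under occlusion and -0.03 ± 0.41 in controls (SD, n = 4 each). The log2 difference was -0.20 (95% interval -1.02 to 0.62, limma adjusted p = 0.981), with an exact permutation p of 0.714. It was 0.40 within slide 1 and -0.80 within slide 2, where occlusion 4 lay, and without occlusion 4 it was 0.16. Without control 3 it was -0.37, and without control 1 it was -0.03.

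Spread of this size was seen in the rats and not in the pool. The Cy5 range of Htr5b was 5.60-fold and its Cy3 range 1.42-fold, and its span of 1.79 in log2 ratio was above that of 97.6% of tested probes. The mean of 10 habenula markers, 8 of them well above background on every array, was 0.10, 0.45, 0.15 and -0.78 in occlusion rats 1 to 4, against 0.13, -0.12, -1.23 and -0.04 in controls 1 to 4. Occlusion 4, the lowest rat for Htr5b, was the lowest occlusion rat for these markers, and control 3, the lowest control for Htr5b, was the lowest control. Gpr151, an orphan receptor gene typical of habenular neurons, was at -1.90 in occlusion 4 and -3.12 in control 3. Tac1, the substance P precursor, was at -1.22 and -1.11, and Chrna3, a nicotinic receptor subunit, at -0.94 and -1.71 in the same rats. The list was not uniform in control 3. For Chrnb3, another nicotinic subunit, control 3 lay above the mean of the other controls (-0.44). Its log2 difference was 0.39 from all rats and 0.45 without control 3. The part of the habenula markers in the Htr5b values was not tested.

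Htr1b, an inhibitory receptor often found on axon terminals, had its spread in controls 1 and 2. Its probe A_43_P15558 (chr8:86719549-86719608, minus strand) had log2 ratios of 0.01, 0.09, -0.01 and -0.06 under occlusion, against -0.53, 0.71, 0.11 and -0.02 in controls. The occlusion rats lay close to 0, inside the range of the controls. Occlusion minus control gave a log2 difference of -0.06 (95% interval -0.55 to 0.44, limma adjusted p = 0.989; exact permutation p = 0.714). It was 0.0048 within slide 1, -0.12 within slide 2 and -0.04 without control 3. Here signal over background ranged 1.88-fold for the pool in Cy3 and 1.68-fold for the rats in Cy5. Both channels were near background, so these ranges cannot decide how much the rats varied. Cy3 signal over background was lowest, at 2.06, on the array of control 2 and highest, at 3.88, on that of control 1, the same arrays that gave the highest and the lowest ratio. Cy3 was well above background on 0 arrays for this probe, although Cy5 was on 6.

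Htr1d, the related terminal receptor, was also dim, with 4 arrays well above background in Cy5 (occlusion 1 and 2, control 2 and 3) and 0 in Cy3. At A_43_P15445 (chr5:155199767-155199826, plus strand) the log2 ratios were 0.29, -0.03, -0.01 and 0.02 under occlusion, against -0.06, 0.10, 0.03 and -0.14 in controls. Occlusion 1 was the highest rat, and the other 3 occlusion rats lay among the controls. Its Cy5 signal over background reached 3.28 in occlusion 1, while the other 7 rats had 1.48 to 2.11. This gave a log2 difference of 0.09 (95% interval -0.12 to 0.30, limma adjusted p = 0.977; exact permutation p = 0.457), 0.19 within slide 1, -0.02 within slide 2 and 0.10 without control 3. Among all tested probes, 14.2% were well above background in Cy3 on at most 1 array, and Htr1b, Htr1d and Htr6 were in that position. For such probes the ratio is to a pool signal near background.

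Htr1a, the receptor that also serves as the autoreceptor of serotonin neurons, had 1 probe under its own symbol, which was well above background in 2 of the 8 rats and was not tested. This probe, A_43_P15468 (chr2:36356095-36356154, plus strand), was printed as 10 spots, which show how steady the dim signal was. In occlusion 1, 9 of 10 used spots were well above background, with Cy5 signal between 99.6 and 123 scanner units. In control 3, 9 of 9 used spots were, with signals between 116 and 137. In the other 6 rats between 0 and 4 spots were, with signals of 79.5 to 105. In control 1, 0 of 8 used spots were, at 95.3 to 105. In control 2, 4 of 9 were, at 85.4 to 93.7. The flag thus did not follow brightness alone across arrays. One rat of each group was flagged over all or nearly all of its spots, and these rats had the highest median signals. The log2 ratios were 0.06, -0.05, -0.01 and -0.06 under occlusion, against -0.02, -0.07, 0.24 and -0.13 in controls.

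A probe 405 bases further along, A_44_P184163, is named on the array only as J05276, an accession the gene table assigns to Htr1a, and passed the filter. Its log2 ratios were 0.14, 0.04, -0.03 and 0.0049 under occlusion, against -0.19, -0.14, 0.55 and -0.31 in controls. Control 3 was the highest rat on both Htr1a probes, and occlusion 1 came second on both. The log2 difference of this probe was 0.06 (95% interval -0.33 to 0.45, limma adjusted p = 0.986), and 0.25 without control 3.

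**Figure D4:**
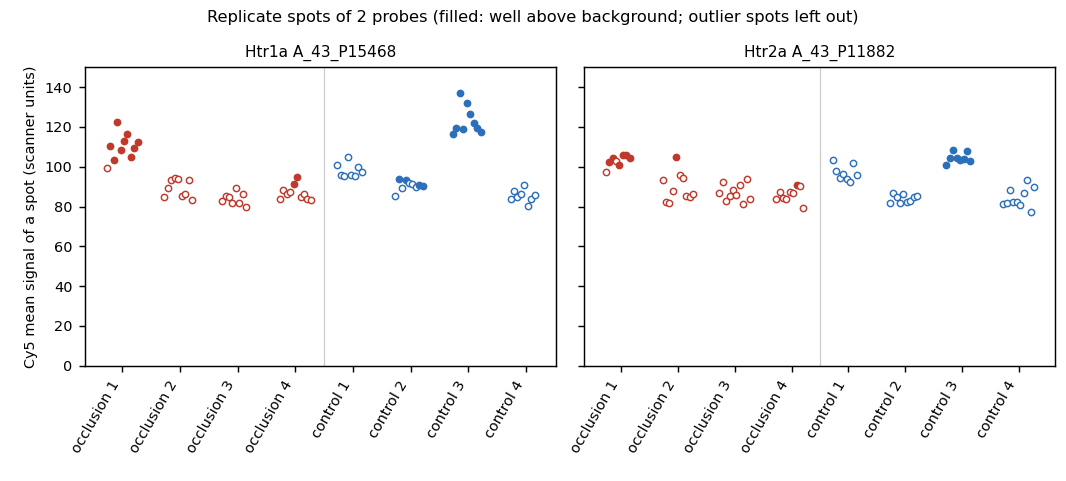
Cy5 mean signal, in scanner units, of each used replicate spot of the Htr1a probe (left) and of the Htr2a probe printed 10 times (right), for occlusion rats 1 to 4 and control rats 1 to 4; filled spots were well above background. For both probes most spots of occlusion 1 and all used spots of control 3 are filled, and 9 and 8 spots were used in control 3.

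Htr1f, the last receptor of the Gi/o arm, was well above background on 1 array, control 4. At A_44_P152635 (chr11:2260600-2260659, minus strand) Cy5 signal over background was 1.39, 1.35, 1.24 and 1.18 under occlusion, against 1.47, 1.41, 1.40 and 1.78 in controls. The highest occlusion level (1.39) and the lowest control level (1.40) were nearly equal, and 7 of the 8 levels were not well above background. The occlusion rats therefore have only a bound, and 3 of the 4 controls were at that level too, so no fold is given. The log2 ratios overlapped, at 0.04, -0.02, 0.0032 and 0.19 under occlusion, against 0.13, 0.14, 0.03 and 0.21 in controls.

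Htr2a, the Gq-coupled receptor that excites cortical pyramidal neurons, was read by 4 probes, of which 1 was tested. A_44_P508280 (chr15:55549339-55549398, plus strand) had log2 ratios of 0.44, -0.26, -0.04 and -0.27 under occlusion, against -0.59, 0.83 and -0.31 in controls 2, 3 and 4. The spot of control 1 was an outlier by the scanner software and was left out, so the control mean rests on 3 rats. Control 3 was the highest rat and occlusion 1 the second, as for Htr1a, and the groups overlapped. The log2 difference was -0.01 (95% interval -0.79 to 0.76, limma adjusted p = 0.998), with an exact permutation p of 1. Without control 3 it was 0.41, with a standard error of 0.20. It was -0.17 within slide 1 and 0.43 within slide 2, where a single control was left. The Cy5 range was 3.09-fold and the Cy3 range 1.26-fold. Cy5 was well above background on 5 arrays and Cy3 on 2. Cy5 signal over background was 4.56, 2.07, 1.48 and 1.61 under occlusion, against 1.87, 4.22 and 2.05 in controls 2, 3 and 4. Apart from occlusion 1 and control 3, these levels were near background.

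Beside Htr2a, the mean of 10 cortex markers was 1.27 in control 3, while the other 7 rats were between -0.80 and -0.25. Control 3 was the highest rat for 8 of the 10, but not for Neurod1, at -0.60, or for Cux2, a cortical layer marker, at -0.00052. Nrgn, a postsynaptic calmodulin-binding protein, was at 1.66 there. Neurod2, a cortical transcription factor, lay between -2.06 and -0.70 under occlusion, against 2.60 in control 3 and -1.88 to -1.39 in the other controls. The 10 meningeal and fibroblast markers were also high there, at 0.98, against -0.51 to 0.13. Occlusion 1, second for Htr2a, had a cortex mean of -0.52 and a meningeal mean of -0.51. The 7 tested markers of reticular and other inhibitory neurons averaged 0.58, -0.77, -0.70 and 0.42 in occlusion rats 1 to 4, against -1.09, -0.58, 1.15 and -0.48 in controls 1 to 4, so control 3 and occlusion 1 were the highest pair there too. The part of these markers in the Htr2a values was not tested.

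The second Htr2a probe, A_43_P11882, lies 1390 bases upstream of the tested one and was printed as 10 spots. In occlusion 1, 6 of 8 used spots were well above background, and in control 3, 8 of 8. In the other 6 rats 0 or 1 were. In control 1 it was 0 of 8, at 92.5 to 103, while the flagged spot of occlusion 4 read 90.8. Here too the flag did not follow brightness alone across arrays. Its log2 ratios were 0.03, -0.12, -0.01 and -0.12 under occlusion, against -0.03, -0.12, 0.06 and -0.15 in controls, so control 3 and occlusion 1 were again the highest pair, within a much smaller span of 0.21. One spot of occlusion 1 read 7570 units where the used spots read 97.5 to 106, and the scanner software had marked it as an outlier.

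The last pair of Htr2a probes, A_44_P513101 and A_44_P513102, overlap each other near chr15:55478716-55478809, far from the first 2, and were not well above background on any array. A_44_P513102 was the single receptor probe of the 14 whose groups did not overlap in log2 ratio. It had 0.03, 0.05, 0.01 and 0.16 under occlusion, against -0.03, -0.14, -0.08 and -0.18 in controls. Among all tested probes, which do not include this one, the groups did not overlap for 2.5%. Its exact permutation p was 0.029, the smallest that 4 against 4 rats allow. Both groups were below the background limit there, with Cy5 signal over background of 1.18 to 1.38 under occlusion, against 1.16 to 1.29 in controls, so no fold is given and no call was made. A_44_P513101, whose position partly overlaps it, overlapped between groups, at -0.11 to 0.06 under occlusion and -0.26 to 0.16 in controls.

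Htr2c, the Gq-coupled receptor known for its very high level in choroid plexus, was well above background on all 8 arrays. At A_43_P11553 (chrX:31069148-31069207, minus strand) Cy5 signal over background was 6.09, 5.72, 6.95 and 4.04 under occlusion, against 6.68, 4.70, 2.81 and 5.45 in controls. The log2 ratios were 0.19, 0.12, 0.16 and 0.08 under occlusion, against 0.43, 0.00092, -0.58 and -0.01 in controls. The occlusion rats lay close together, inside a wide control range with control 1 at the top and control 3 at the bottom. The means were 0.14 ± 0.05 under occlusion and -0.04 ± 0.41 in controls (SD, n = 4 each). From these the log2 difference was 0.18 (95% interval -0.23 to 0.59, limma adjusted p = 0.977), with an exact permutation p of 0.543. It was 0.45 within slide 1 and -0.10 within slide 2. Without control 3 it was 0.00017, and without control 1 it was 0.34.

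The choroid plexus markers were highest in occlusion 3, where the place of Htr2c depended on the scale. The 7 tested markers, all well above background on every array, had a mean log2 ratio of -0.36, -0.41, 0.83 and -0.88 in occlusion rats 1 to 4, against -0.53, -0.80, -1.59 and -0.81 in controls 1 to 4. Ttr, transthyretin, which choroid plexus makes in quantity, was at 2.28 in occlusion 3, while the other 7 rats lay at -2.79 to -1.76. The other 2 of the 3 brightest markers, Otx2 and Sostdc1, were at 0.34 and 1.97 there. Htr2c in occlusion 3 had a log2 ratio of 0.16, within the range of the other 3 occlusion rats, 0.08 to 0.19. Its Cy5 signal over background (6.95) and the log2 ratio of the scanner software (0.88) were the highest of the 8 rats there. In control 3, both Htr2c (-0.58) and the choroid plexus markers (-1.59) were at their lowest, as were the relay markers. The part of either list in the Htr2c difference was not tested.

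**Figure D5:**
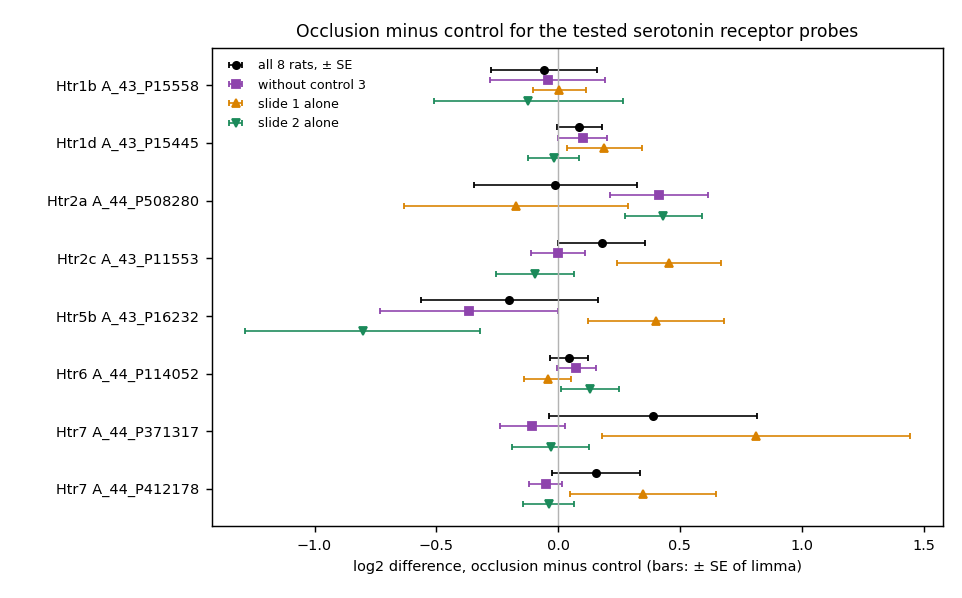
Log2 difference, occlusion minus control, of the 8 tested receptor probes with ± SE of limma, from all 8 rats, without control 3, and within each slide. Htr7 A_44_P371317 lies at 0.39 from all 8 rats and at -0.11 without control 3, and Htr5b lies at 0.40 within slide 1 and -0.80 within slide 2.

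The 8 tested probes differed among themselves in which rat stood out. Control 3 was the lowest rat for Htr2c and both Htr7 probes, 3 of the 8, and the highest for Htr2a. Over the tested probes measured on every array, control 3 was the lowest rat for 24.4% and the highest for 24.3%, the largest share of any rat in both directions. Occlusion 1 was the highest rat for 14.6%, the next largest share, so these rats were often the highest across the array. Control 1 was the highest for Htr2c, Htr5b and Htr7 A_44_P412178. The spans of log2 ratio were at least 1 for Htr7 A_44_P371317, Htr5b, Htr2a, Htr1b and Htr2c, which 9.73% of tested probes reached. They were 0.44 for Htr1d and 0.30 for Htr6, near and below the median of 0.42. Both of these probes were dim, and the background correction pulls such ratios towards 0.

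For the 5 genes with a span of at least 1, the genes with the most similar pattern were taken as those with the smallest mean absolute difference in log2 ratio over the rats. Closest to Htr7 over 8 rats were Glra2, a glycine receptor subunit (0.10), Rftn1, a lipid raft protein (0.14), and Upk3a, a uroplakin (0.14). In control 3 these were at -1.37, -1.60 and -1.59. Closest to Htr5b were Scube1 (0.14), Nppa, the atrial natriuretic peptide precursor (0.15), and Neurod1, a neuronal transcription factor (0.15), at -1.33, -0.85 and -1.12 in occlusion 4. Closest to Htr2c were Insig1, a regulator of sterol synthesis (0.06), Fbxo30 (0.06) and Ddhd1 (0.07). Closest to Htr2a, over 7 rats, were Crabp2, a retinoic acid-binding protein (0.08), Ifi27l2b (0.10) and Zbtb16, a zinc finger transcription factor (0.11). Closest to Htr1b were Sema4d, a semaphorin (0.11), Mfsd14b (0.12) and Ptprg, a receptor tyrosine phosphatase (0.12), all low in control 1, between -0.57 and -0.48. These distances describe likeness over the rats measured and nothing further.

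Other genes of the serotonin pathway were read from the same fit, and 0 of the members of any list below passed in either direction. The other serotonin receptors, Htr2b, Htr3a, Htr3b and Htr5a, were all tested, 2 with a difference above 0 and 2 below, between -0.04 and 0.02, with a median of -0.01 (0.0013 without control 3). For comparison, the median over all tested probes was 0.0019. Htr3a and Htr3b, the subunits of the ion channel receptor, differed by -0.04 and 0.02, and by 0.02 and -0.10 without control 3. Htr5a, the sister gene of Htr5b, differed by -0.04, with a standard error of 0.08.

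Of 20 genes for serotonin synthesis, transport and breakdown, 17 were tested, 13 above 0 and 4 below, with a median of 0.10 (0.07 without control 3). Tph2, the neuronal tryptophan hydroxylase, Fev, a transcription factor of serotonin neurons, and Gata3 did not pass the filter. Tph1, the other tryptophan hydroxylase, had the largest difference of the list, 0.93 with a standard error of 0.79, and 0.62 without control 3. Its log2 ratios ran from -1.47 to 2.00 under occlusion, against -1.99 to 0.60 in controls, and it was not called. Ddc, the decarboxylase that makes serotonin and dopamine, had log2 ratios of 1.21, 0.10, 0.10 and 0.15 under occlusion, against 0.10, -0.02, -1.71 and -0.09 in controls. Occlusion 1 was high and control 3 low, and the remaining rats lay between -0.09 and 0.15. Its log2 difference was 0.82, with a standard error of 0.42 (limma adjusted p = 0.977; exact permutation p = 0.057), and 0.39 without control 3. Asmt, the last enzyme of melatonin synthesis, differed by 0.20, Maoa, a monoamine oxidase, by 0.20 and Gch1, which starts synthesis of the tetrahydrobiopterin cofactor, by 0.10, with 0 of them called, and by 0.18, 0.16 and 0.07 without control 3.

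The receptors' signalling arms and partners had medians between -0.11 and -0.01. In the Gi/o and potassium channel arm 5 of 12 tested genes were above 0 and 7 below (median -0.03, and -0.01 without control 3), with Rgs9, a regulator of G-protein signalling, at 0.27 and Kcnj6, a channel subunit, at -0.28. Without control 3 these were 0.31 and -0.11. In the Gq arm 5 of 13 were above 0 and 8 below (median -0.11, and 0.01 without control 3), with Itpr1, an inositol trisphosphate receptor, at -0.32 and Prkce, a protein kinase C, at -0.28. Control 3 was at 0.76 and 0.65 for this pair, and without it the differences were -0.15 and -0.06. In the Gs arm 9 of 21 were above 0 and 12 below (median -0.01, and -0.02 without control 3), with the adenylate cyclases Adcy4 at 0.10 and Adcy5 at 0.28, or 0.09 and 0.05 without control 3. Among receptor partners 4 of 11 were above 0 and 7 below (median -0.04, and 0.05 without control 3), with the postsynaptic scaffold Dlg4 at -0.19 and the Htr2-binding scaffold Mpdz at 0.23, or -0.13 and 0.12 without control 3. The smallest unadjusted p in these 4 lists was 0.070, for Dlg4.

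Markers of serotonin neurons themselves were read because the receptors' ligand comes from outside the thalamus. Of 6 listed, 4 were tested, and their mean log2 ratio was 0.66, -0.09, 0.0046 and -0.07 in occlusion rats 1 to 4, against -0.03, -0.04, -0.69 and 0.02 in controls 1 to 4. Ddc and Slc18a2, the vesicular monoamine transporter, made up these extremes, with Slc18a2 at 1.46 in occlusion 1 and -1.06 in control 3, and neither is specific to serotonin neurons. Lmx1b, a transcription factor of these neurons, differed by 0.03, and Slc6a4, the serotonin transporter, by -0.0047.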

How the data were processed

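The authors' 2-colour scans (design 014879, coordinates on rn3) were read by Feature Extraction 9.5.1.1 from Agilent, per the file headers. The deposited files give spot intensity in each channel on a linear scale, with flags for outliers and for signal well above background. They also hold the software's log10 ratio of Cy5 over Cy3, which the deposited value table repeats.

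Intensities were corrected by normexp (offset 50) and normalised by loess within arrays, giving no weight to control spots or outliers. Each probe's remaining spots were averaged without outliers. The limma 3.58.1 fit (R 4.3.3) took the probes whose Cy5 signal was well above background on 4 or more of 8 arrays and that had 2 or more values per group. Benjamini-Hochberg adjustment covered all of these. The fit was tested on simulated data. Exact permutation tests used scipy 1.17.1 and figures matplotlib 3.10.9. The offset pulls the ratios of dim probes towards 0.

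The members and lists were chosen with earlier results of these data known. All member probes are described. Beyond them, the rule names the 4 genes of smallest unadjusted p in the receptor and synthesis lists, 2 in each other pathway list, up to 3 of the brightest tested genes of each marker list, and the 3 genes most like each member that spans at least 1 log2 unit. Slc6a4, Tph1, Chrnb3 and Neurod1 as a cortex marker were named after their values were seen. Lists used the brightest tested probe of a gene. Nothing says that the rats were independent beyond their labels as separate animals, and 4 per group limits the precision. Alternatives covered background, scaling, filter, probe choice, slide, replicate number, weights and each rat left out.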

Additional observations from a re-analysis of the deposited data

Results flagged for a closer look

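In 9 of 63 groups of 4 values examined, the gap from 1 rat to its nearest neighbour took up most of that group's range. For independent, normally distributed groups about 1 in 20 (3.15) would do so. These groups share the same rats and some genes, so that rate is no test of the 9. Among receptor probes, Htr1d was high in occlusion 1 (log2 ratio 0.29, nearest occlusion rat 0.02). Htr4 was low in control 1 (-1.55, nearest control -0.06), on a spot that was high in both channels and not well above background in any other rat. Htr7 A_44_P371317 was low in control 3 (-1.68, nearest control 0.16).

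Among the marker lists, the relay marker mean was low in occlusion 1 (-0.31, nearest occlusion rat 0.08) and in control 3 (-1.98, nearest control 0.11). In control 3 the cortex mean was high (1.27, nearest control -0.67), as was the meningeal and fibroblast mean (0.98, nearest control -0.38). The mean of serotonergic neuron markers was high in occlusion 1 (0.66, nearest occlusion rat 0.0046) and low in control 3 (-0.69, nearest control -0.04).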

How the results depend on the processing

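Under each of the 20 alternatives run, 0 receptor probes were called. Among all probes, leaving out each rat gave between 0 and 1 calls, the 1 without control 3 being no receptor probe, and every other alternative gave 0. Of 155 receptor values under the alternatives, 134 kept the sign of the main value and 21 did not, with adjusted p of 0.863 or above. Changes of filter and probe choice leave a probe's difference unchanged, as do blocks by slide or replicate number where every rat has a value. Leaving out control 1 also changes nothing for Htr2a, which had no value there. Such values kept their sign by construction, so the 134 are no measure of stability. Unadjusted, 2 of the 155 values had a p under 0.05: Htr2a within slide 2 (0.0465) and Htr2c without control 1 (0.0459).

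Signs turned within slide 1 for Htr1b (0.0048), Htr5b (0.40) and Htr6 (-0.043). Within slide 2 they turned for Htr1d (-0.017), Htr2a (0.43), Htr2c (-0.10), Htr7 A_44_P371317 (-0.031) and Htr7 A_44_P412178 (-0.038). On the scanner software's ratios they turned for Htr1b (0.27) and Htr6 (-0.032), and on the Cy5 channel alone, an alternative chosen after seeing the data, for Htr1b (0.065). Htr2a was 0.069 with slide as a block and 0.28 with array weights. Leaving out each rat in turn gave -0.26 to 0.16 for Htr1b, 0.01 to 0.13 for Htr1d, -0.29 to 0.41 for Htr2a, 0.00017 to 0.34 for Htr2c, -0.42 to 0.16 for Htr5b, -0.016 to 0.075 for Htr6, -0.11 to 0.61 for Htr7 A_44_P371317 and -0.051 to 0.25 for Htr7 A_44_P412178. Apart from the construction of each alternative, the cause was not tested.

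With the replicate number as a block, 0 probes were called, Htr2a was -0.17 and the other 7 receptor differences kept their values. That block cannot change the difference of a probe with a value in every rat. Deviations of same-numbered rats correlated at -0.13, 0.13, 0.02 and 0.08. Same-numbered rats always lay on different slides, so these values cannot decide whether the numbers pair the rats. Dim signal limits Htr1b, Htr1d, Htr6 and Htr2a, and the probes named Htr1a, Htr1f and Htr4 have no test. Htr1d in occlusion 1 had a log2 ratio of 0.29 after normexp and 2.03 by the scanner software.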
